A study of Mus musculus with 16 samples.

Results

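10 imprinted genes were followed in mouse mammary tumours driven by STAT5 and in normal mammary gland: Phlda2, H19, Cdkn1c, Peg3, Mest, Dlk1, Plagl1, Grb10, Meg3 and Ndn. They were taken through every Affymetrix probe set whose annotation names one of them and no other gene, which gave 25 of 22690 probe sets and covered 9 of the 10 genes. The probe set for H19, the maternally expressed noncoding RNA beside Igf2, also carries the symbol of the microRNA gene within it, Mir675, so H19 has no value here. To be tested, a probe set needed a signal over 35.4 (the 40th percentile of the deposited table) on 3 or more arrays. 17 of the 25 probe sets and 8 of the 10 genes met this, and Dlk1 did not.

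All animals were of the FVB/N background. 7 arrays held mammary tumours of mice with the STAT5ca transgene, a constitutively active STAT5. 6 arrays held mammary tumours of mice with the STAT5Δ750 transgene, a STAT5 with its C-terminus truncated, and 3 held normal mammary gland. Each array is labelled as a sample with a number of its own. The promoter of the transgenes, the age of the mice, the stage of the gland and any pooling are not given in the labels, and whether every tumour came from a different mouse is not stated, so that p-values measure only the spread between these samples.

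An imprinted gene is transcribed mainly from the copy inherited from one parent. Many genes of this kind act on growth before birth, and in the parental-conflict view maternally expressed ones tend to restrain growth and paternally expressed ones to promote it. They are marked by DNA methylation at control regions rich in CG dinucleotides, many are strongly expressed in embryo and placenta, and most are turned down after birth. Phlda2, Cdkn1c, Grb10, H19 and Meg3 are expressed mainly from the maternal copy, and Peg3, Mest, Dlk1, Plagl1 and Ndn from the paternal copy. Arrays of this kind measure the RNA of both copies together, so that imprinting itself was not measured.

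Phlda2 and Cdkn1c lie in the same imprinted domain of distal chromosome 7, with 40486 bases between them in the mouse genome build GRCm38.p6, and Dlk1 and Meg3 lie together on chromosome 12, with 77660 bases between them. The RefSeq promoter table for that build held 12 start sites of 8 of the 10 genes. The bases just upstream of a RefSeq start are shown for the 3 genes that differed from gland in both tumour types, 5′ to 3′ on the strand of the gene, with CG dinucleotides in capitals. The Phlda2 window is chr7:143502525-143502774 on the minus strand, the Meg3 window chr12:109540746-109540995 on the plus strand, and the Ndn window chr7:62348027-62348276 on the plus strand. The Phlda2 window lies upstream of a start within the span RefSeq lists for the gene, chr7:143501545-143503145, and the Meg3 window is the first of the 2 in the table.
Phlda2: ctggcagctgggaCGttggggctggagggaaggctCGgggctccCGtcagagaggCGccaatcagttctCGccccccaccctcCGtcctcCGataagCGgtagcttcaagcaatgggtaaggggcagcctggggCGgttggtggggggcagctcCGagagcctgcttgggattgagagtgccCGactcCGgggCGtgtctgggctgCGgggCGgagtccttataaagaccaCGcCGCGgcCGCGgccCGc
Meg3: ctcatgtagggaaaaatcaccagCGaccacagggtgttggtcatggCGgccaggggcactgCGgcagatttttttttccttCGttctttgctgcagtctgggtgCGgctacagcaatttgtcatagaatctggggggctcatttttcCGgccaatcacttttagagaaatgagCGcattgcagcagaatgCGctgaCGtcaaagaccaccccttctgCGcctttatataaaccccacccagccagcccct
Ndn: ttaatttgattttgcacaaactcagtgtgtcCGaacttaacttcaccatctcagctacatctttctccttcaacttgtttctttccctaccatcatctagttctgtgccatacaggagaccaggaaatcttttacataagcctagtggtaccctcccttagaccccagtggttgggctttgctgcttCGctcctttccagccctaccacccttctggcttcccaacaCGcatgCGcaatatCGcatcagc
The Phlda2 window held 21 CG dinucleotides, and 83.7% of all RefSeq windows held fewer, with a median of 6.0. The Meg3 window shown held 10, the other Meg3 window 0 and the Ndn window 5. The motif that STAT5 dimers are known to bind, TTCNNNGAA, was searched over 250 bases and reads the same on both strands. It was in none of the 12 windows, while 7.02% of 32851 windows of the same length held it. That says only that these letters are not in these windows.

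The array medians of the deposited signal ran from 57.3 to 90.7, and signals are given after scaling each array to a common median. Group differences are in log2(scaled signal + 7.9), with the standard error of a limma model over 9261 genes, and adjusted p-values are Benjamini-Hochberg values over all of these genes, with a threshold of 0.05. The number of arrays limits the precision. STAT5ca_177 stood apart from its group, with a mean correlation of 0.669 with the other STAT5ca arrays, where the others had 0.808 to 0.861. Krt8, which encodes a luminal keratin, read 33.5 on it, whereas the other STAT5ca tumours had 4020 or more. The summed signal of 9 luminal markers on this array was 1025, where the lowest gland had 4697. Its macrophage marker sum, 41994, was the highest of all arrays. Krt8 and the luminal sum gave little sign of luminal cells on that array. These markers cannot decide whether its label as a mammary tumour holds. The ratio of 3′ to 5′ beta-actin signal, a measure of RNA quality, was 1.76 to 5.38 in STAT5ca tumours, 1.27 to 3.52 in STAT5Δ750 tumours and 1.07 to 1.25 in gland.

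Phlda2 rose and Ndn and Meg3 fell in both tumour types relative to gland, and the other 5 genes tested did not pass (the plot of log2 differences shows all 8). That is 3 of 8 genes in STAT5ca tumours, where 23.3% of all 9261 genes passed, 13.9% higher and 9.39% lower. It is also 3 of 8 in STAT5Δ750 tumours, where 19.7% passed, 9.29% higher and 10.4% lower. The median log2 difference of the 8 genes was −1.18 in STAT5ca tumours and −0.84 in STAT5Δ750 tumours, against 0.25 and 0.08 over all genes. With the deposited scaling the medians over all genes were −0.023 and −0.043. Both comparisons share the same 3 glands, and Phlda2 met the filter through tumour arrays alone. Between STAT5ca and STAT5Δ750 tumours none of the 8 passed in limma, as was so for all genes (0% called). At an unadjusted p under 0.05 the count was 1 of the 8, against 764 of all genes. The split of higher and lower calls over all genes depended on the scaling: 1284 higher and 870 lower in STAT5ca tumours at the common median became 622 and 1226 with the deposited scaling and 871 and 1137 after quantile normalization. For STAT5Δ750 tumours the same counts were 860 and 963, 706 and 1299, and 895 and 1278.

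**Figure D1:**
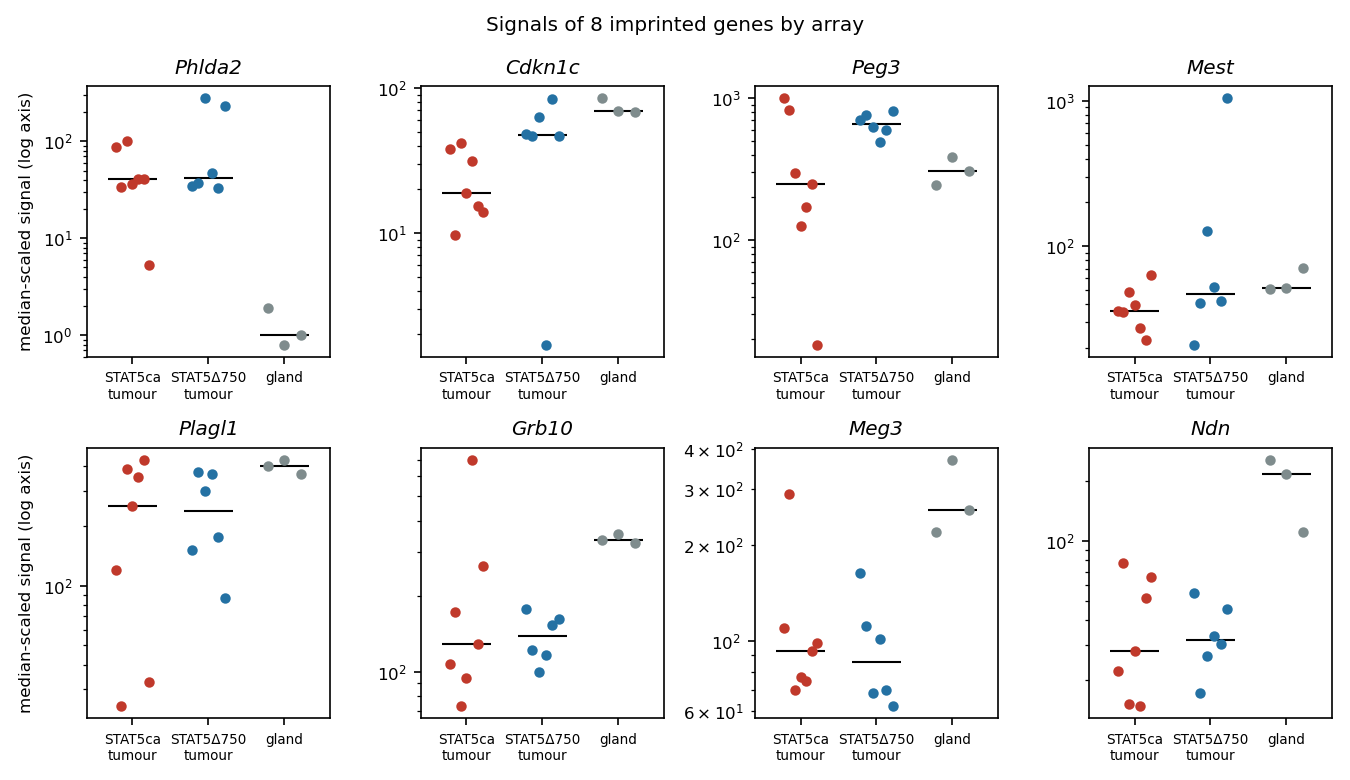
Median-scaled signal (log axis) of 8 imprinted genes on each array, by group, with the group median as a line. Phlda2 lies at or above 5.3 in the 13 tumours and at or below 1.9 in the 3 glands, while Ndn lies lower in every tumour than in any gland.

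The first of the growth-restraining genes, Phlda2, encodes a small pleckstrin homology domain protein that limits growth of the placenta. The lowest, median and highest signals of its probe set, 1417837_at, were 5.3, 40.7 and 101.7 in STAT5ca tumours. In STAT5Δ750 tumours they were 32.8, 41.8 and 278.3, and the 3 glands had 1.9, 0.8 and 1.0. Every tumour lay above every gland, a pattern that 14.5% of all genes showed for STAT5ca and 18.5% for STAT5Δ750 tumours. STAT5ca_177 was the lowest tumour, and STAT5Δ750_165 and STAT5Δ750_160, with 278.3 and 229.5, stood above the other 11 tumours. The log2 difference was 2.40 ± 0.67 in STAT5ca tumours (SE, limma adjusted p = 0.0179) and 3.16 ± 0.69 in STAT5Δ750 tumours (adjusted p = 0.00498), or 5.27-fold and 8.91-fold on the offset scale.

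Phlda2 met the filter through tumours alone. With glands this low, it could be tested only because tumours read higher. The gland signals of Phlda2 were also below the offset of 7.9, so that the offset sets the size of these folds. With an offset of 1 the log2 differences were 4.14 in STAT5ca tumours and 5.04 in STAT5Δ750 tumours. With an offset of the 40th percentile they were 1.11 (adjusted p = 0.103) and 1.66 (adjusted p = 0.0259), and the first no longer passed. The STAT5ca difference also missed the threshold when any one gland was left out (2.45 without gland 1, adjusted p = 0.0610; 2.36 without gland 4, adjusted p = 0.0679; 2.38 without gland 6, adjusted p = 0.0631) and with the beta-actin ratio as a covariate (2.30, adjusted p = 0.150). It was 2.71 without STAT5ca_177 (adjusted p = 0.00311). The STAT5Δ750 difference passed in all 26 alternatives run, with adjusted p of at most 0.0297. STAT5ca against STAT5Δ750 tumours gave −0.76 for Phlda2, with a 95% interval of −1.91 to 0.39. This interval holds 0 as well as differences of over 1 on the log2 scale.

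Cdkn1c encodes p57, an inhibitor of cyclin-dependent kinases that holds cells in the G1 phase. Its lowest, median and highest signals were 9.6, 19 and 41.8 in STAT5ca tumours, and in STAT5Δ750 tumours 1.7, 47.1 and 84.1. The glands had 84.8, 69.6 and 68.2. All STAT5ca tumours lay below all glands, as in 8.06% of all genes. So did 5 of 6 STAT5Δ750 tumours, and STAT5Δ750_174 was far below the rest of its group. Neither difference passed: −1.45 ± 0.53 in STAT5ca tumours (SE, limma adjusted p = 0.0591) and −0.81 ± 0.54 in STAT5Δ750 tumours (adjusted p = 0.315). Without STAT5Δ750_174, which widens the spread shared by the groups, the STAT5ca difference kept its value and passed (adjusted p = 0.00529), while the STAT5Δ750 difference was −0.36 (adjusted p = 0.497). The STAT5ca difference also passed with the deposited scaling (−1.68, adjusted p = 0.0339). In all it passed in 5 of 26 alternatives run, and the STAT5Δ750 difference in 1, with array quality weights (−1.15, adjusted p = 0.0192). With an offset of the 40th percentile the differences were −0.90 and −0.47.

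Grb10 encodes an adaptor protein that binds the insulin and IGF1 receptors and dampens their signal. Its tested probe set, 1425458_a_at, read 73.1, 129.3 and 699.0 as lowest, median and highest in STAT5ca tumours. For STAT5Δ750 tumours the values were 99.8, 138.5 and 178.2, against 336.2, 354.1 and 325.5 in the glands. All 6 STAT5Δ750 tumours lay below every gland, as in 14.8% of all genes, and so did 6 of 7 STAT5ca tumours. STAT5ca_169, with 699.0, lay above all. The differences were −1.01 ± 0.49 (SE, limma adjusted p = 0.145) in STAT5ca tumours and −1.26 ± 0.50 (adjusted p = 0.0866) in STAT5Δ750 tumours. Without STAT5ca_169 both passed, at −1.35 (adjusted p = 0.00750) in STAT5ca tumours and −1.26 (adjusted p = 0.0121) in STAT5Δ750 tumours. The STAT5Δ750 difference also passed with only the arrays of these groups (adjusted p = 0.00216), and both passed with array quality weights (adjusted p = 0.00145 and 0.000881). The difference between the tumour types was 0.26, with a 95% interval of −0.57 to 1.09, and −0.08 without that array.

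Meg3 is a noncoding RNA transcribed from the maternal copy of the Dlk1 domain. Its tested probe set, 1439380_x_at, read 70.0, 92.9 and 288.7 as lowest, median and highest in STAT5ca tumours. In STAT5Δ750 tumours these were 62.4, 85.9 and 163.2, and the glands had 219.5, 370.7 and 258.7. Apart from STAT5ca_124, with 288.7, each tumour lay below every gland, and 14.8% of all genes had all STAT5Δ750 tumours below. Meg3 fell by 1.36 ± 0.38 on the log2 scale in STAT5ca tumours (SE, limma adjusted p = 0.0169) and fell by 1.52 ± 0.39 in STAT5Δ750 tumours (adjusted p = 0.0123), so that gland was 2.57-fold and 2.87-fold higher on the offset scale. Without gland 4 the differences were −1.15 (adjusted p = 0.0987) and −1.31 (adjusted p = 0.0840), and without gland 6 the STAT5ca difference was −1.41 (adjusted p = 0.0520). The direction was the same in all 27 alternatives run. With STAT5ca minus STAT5Δ750 tumours, Meg3 gave 0.16 and a 95% interval of −0.49 to 0.81.

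The probe sets of Meg3 did not all give this difference. In a fit over 15764 probe sets, 3 of its 4 kept probe sets fell in STAT5ca tumours (limma adjusted p of 0.0189, 0.0389 and 0.0448), with log2 differences between −1.07 and −1.78. In STAT5Δ750 tumours 1 of 4 fell, the tested 1439380_x_at (adjusted p = 0.0133). Its suffix, _x_at, is Affymetrix's mark for probes that may match other transcripts. The remaining kept probe sets had limma adjusted p of 0.0939, 0.102 and 0.531 in STAT5Δ750 tumours. The fourth, 1436057_at, read 9.8 to 47.0 in STAT5ca tumours, 7.8 to 31.9 in STAT5Δ750 tumours and 21.5 to 34.3 in gland, and its differences were −0.23 and −0.36. With the mean of the kept Meg3 probe sets, the STAT5Δ750 difference was −1.06 and missed the threshold (adjusted p = 0.0521). The fifth, 1436713_s_at, did not pass the filter.

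Dlk1, the paternally expressed partner of Meg3, encodes a membrane protein of preadipocytes that restrains fat cell formation. Its only probe set read 10.2, 14.4 and 22.3 as lowest, median and highest in STAT5ca tumours. The STAT5Δ750 tumours had 1.4, 14.4 and 29.9, and the glands had 13.1, 13.3 and 11.6. The groups overlapped at signals that did not pass the filter. Without the filter the differences were 0.16 ± 0.34 (SE, limma adjusted p = 0.795) and 0.05 ± 0.34 (adjusted p = 0.948), so that a change in Dlk1 was not detectable with this probe set.

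Ndn encodes necdin, a protein of the MAGE family that binds E2F1 and p53 and restrains cell division. Its tested probe set, 1435382_at, read 14.8, 28.1 and 77.1 as lowest, median and highest in STAT5ca tumours. The STAT5Δ750 tumours had 17.2, 31.7 and 54.8, and the glands had 254.7, 216.8 and 110.2. Every tumour lay below every gland, a pattern that 8.06% of all genes showed for STAT5ca and 14.8% for STAT5Δ750 tumours. Ndn fell by 2.20 ± 0.43 on the log2 scale in STAT5ca tumours (SE, limma adjusted p = 0.00191) and fell by 2.23 ± 0.44 in STAT5Δ750 tumours (adjusted p = 0.00262), and gland was 4.60-fold and 4.70-fold higher on the offset scale. Both differences passed in all 26 alternatives run, with log2 values between −2.63 and −1.63 in STAT5ca tumours and between −2.58 and −1.68 in STAT5Δ750 tumours.

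All 5 kept probe sets of Ndn fell in both tumour types. Their log2 differences ran from −2.81 to −2.07 in STAT5ca tumours (limma adjusted p of at most 0.00233) and from −2.93 to −2.23 in STAT5Δ750 tumours (adjusted p of at most 0.00457). 3 of the 5 carry the suffix _x_at, Affymetrix's mark for probes that may match other transcripts, and the other 2 do not. The 3 probe sets that were not kept read at most 12.3 on any array. Since these probe sets read the same RNA on the same arrays, they are repeat readings and not replicates.

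**Figure D2:**
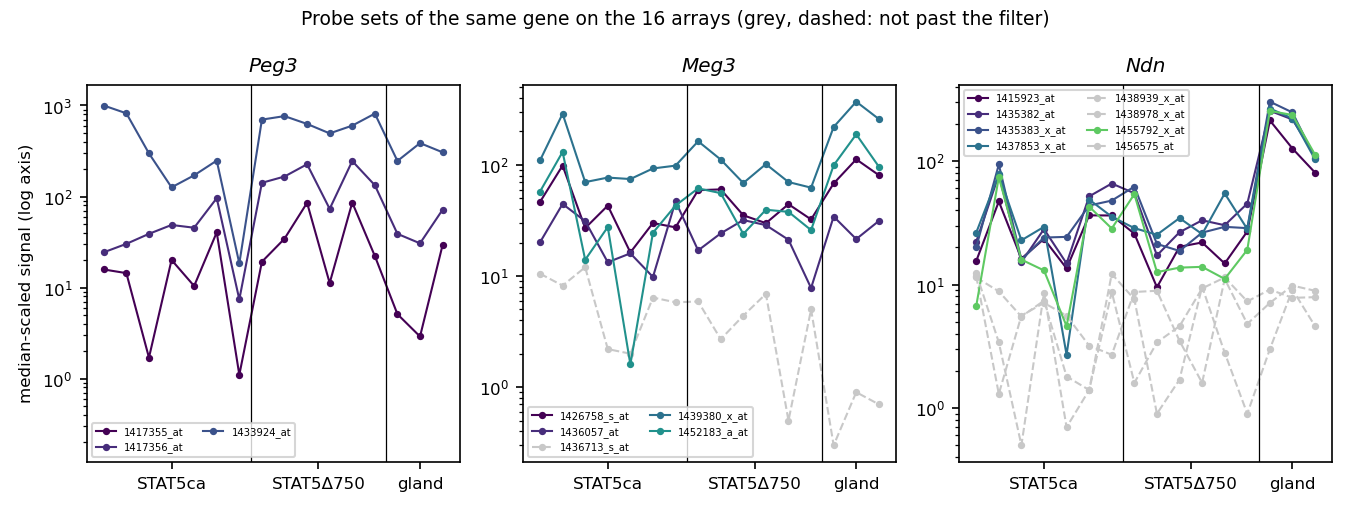
Median-scaled signal (log axis) of every probe set of Peg3, Meg3 and Ndn on the 16 arrays, joined by lines within a probe set, with grey dashed lines for those not past the filter. The 5 kept Ndn probe sets all peak in the 3 glands, and all 3 Peg3 probe sets have a higher median in STAT5Δ750 tumours than in gland.

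Peg3 encodes a large zinc finger protein, expressed from the paternal copy, that is known for effects on growth and maternal behaviour. Its tested probe set, 1433924_at, read 18.4, 248.0 and 998.8 as lowest, median and highest in STAT5ca tumours. In STAT5Δ750 tumours these were 493.7, 663.2 and 814.0, against 245.7, 386.2 and 305.9 in the glands. All 6 STAT5Δ750 tumours lay above all glands, as in 18.5% of all genes, while STAT5ca tumours spread over a 54.2-fold range around them, with STAT5ca_177 lowest and STAT5ca_123 and STAT5ca_124 highest. The differences were −0.42 ± 0.77 in STAT5ca tumours (SE, limma adjusted p = 0.725) and 1.08 ± 0.79 in STAT5Δ750 tumours (adjusted p = 0.359). The first was 0.11 without STAT5ca_177. The second passed when only STAT5Δ750 and gland arrays entered the fit (adjusted p = 0.00538) and with array quality weights (1.25, adjusted p = 0.00553). With the beta-actin ratio as a covariate the differences were −1.81 in STAT5ca tumours (adjusted p = 0.256) and 0.24 in STAT5Δ750 tumours (adjusted p = 0.867). Over 27 alternatives the first ran from −1.81 to 0.11 and the second from 0.24 to 1.33.

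A second Peg3 probe set, 1417356_at, read 7.4, 38.9 and 95.9 in STAT5ca tumours as lowest, median and highest. For STAT5Δ750 tumours they were 73.2, 153.6 and 245.3, against 38.9, 30.6 and 71.7 in the glands. Here each STAT5Δ750 tumour lay above every gland and 6 of 7 STAT5ca tumours lay below every STAT5Δ750 tumour. In the fit over probe sets it rose by 1.62 ± 0.48 on the log2 scale in STAT5Δ750 tumours relative to gland (SE, limma adjusted p = 0.0273), and the STAT5ca difference was −0.28 ± 0.47 (adjusted p = 0.702). STAT5ca minus STAT5Δ750 tumours gave −1.90 ± 0.38 with an unadjusted p of 0.000114, which was 0.467 after adjustment over 15764 probe sets. For 1433924_at that difference was −1.49, with a 95% interval of −2.81 to −0.18 and an unadjusted limma p of 0.0284, and for the third probe set, 1417355_at, −1.11 with an unadjusted p of 0.0317. Their signs were alike, and none passed after adjustment. The 1433924_at difference was negative in all 27 alternatives run, between −2.05 and −0.97.

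Mest encodes a hydrolase of the endoplasmic reticulum, expressed from the paternal copy, that is known in mice for its link to fetal growth and fat cell size. Its lowest, median and highest signals were 22.7, 35.9 and 63.3 in STAT5ca tumours, and in STAT5Δ750 tumours 21.1, 47.2 and 1039.6. The glands had 51.2, 51.6 and 71.0. The groups overlapped, and STAT5Δ750_160, with 1039.6, and STAT5Δ750_165, with 126.5, were the only tumours above all glands. These are also the tumours with the highest Phlda2 signals. The differences were −0.53 ± 0.76 in STAT5ca tumours (SE, limma adjusted p = 0.643) and 0.49 ± 0.77 in STAT5Δ750 tumours (adjusted p = 0.693), and the second was −0.21 without STAT5Δ750_160 and 0.82 without STAT5Δ750_254.

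Plagl1 encodes a zinc finger transcription factor that acts on other imprinted genes and can arrest the cell cycle. Its tested probe set, 1426208_x_at, read 24.7, 252.0 and 428.6 as lowest, median and highest in STAT5ca tumours. The STAT5Δ750 tumours had 86.5, 237.5 and 375.9, against 400.6, 431.7 and 367.4 in the glands. 5 of 7 STAT5ca and 4 of 6 STAT5Δ750 tumours lay below every gland, and the groups overlapped. The differences were −1.34 ± 0.75 (SE, limma adjusted p = 0.209) and −0.87 ± 0.77 (adjusted p = 0.454), and did not pass in any of 27 alternatives. The second Plagl1 probe set read at most 5.0 on any array.

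**Figure D3:**
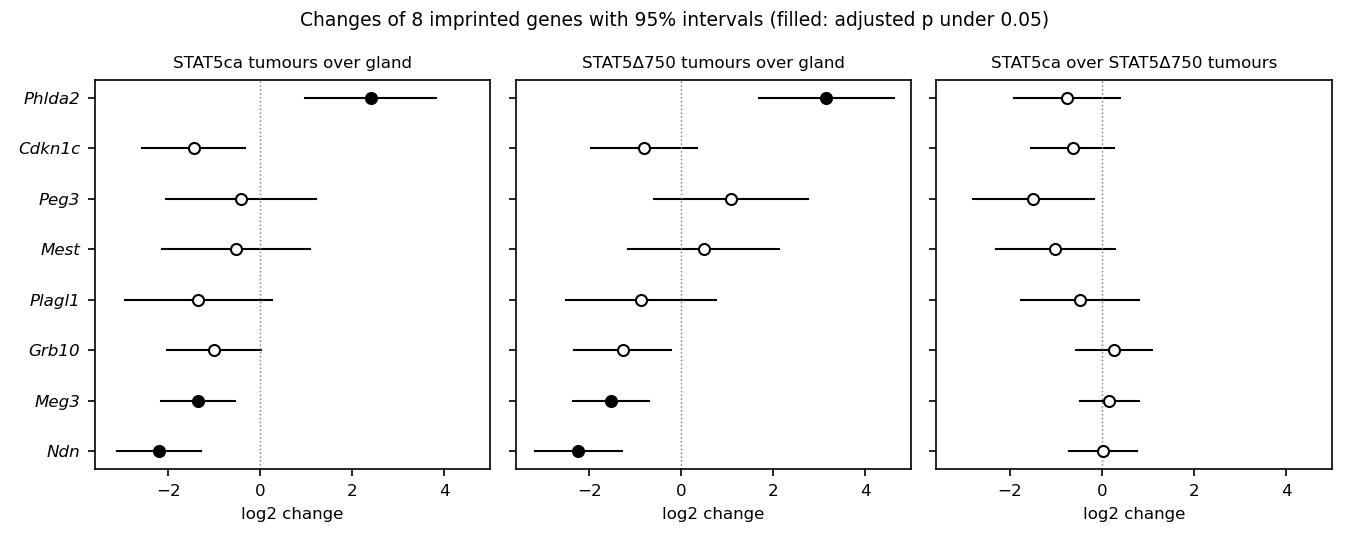
Log2 difference with its 95% interval for 8 imprinted genes in STAT5ca tumours over gland, STAT5Δ750 tumours over gland and STAT5ca over STAT5Δ750 tumours, with filled circles for an adjusted p under 0.05. Phlda2 lies at 2.40 and 3.16 over gland and Ndn at −2.20 and −2.23, and no circle is filled between the tumour types.

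Between the tumour types the intervals of the 8 genes show what these arrays could tell. They were narrowest for Meg3, −0.49 to 0.81, Ndn, −0.71 to 0.77, and Grb10, −0.57 to 1.09. For Mest the difference of STAT5ca minus STAT5Δ750 tumours was −1.02, with an interval of −2.31 to 0.27, for Cdkn1c −0.64 with −1.55 to 0.27, and for Plagl1 −0.47 with −1.76 to 0.81. None of the 8 genes had STAT5ca arrays all above or all below the STAT5Δ750 arrays, and 0.151% of all genes had STAT5ca arrays all above.

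The tissues differed in their cell types along with these genes, and in bulk RNA fewer cells of a type and less RNA per cell cannot be told apart. All 8 white adipocyte markers tested fell in both tumour types, and their summed signal was 641 to 3988 in STAT5ca tumours, 910 to 2842 in STAT5Δ750 tumours and 15586 to 16531 in gland. All 8 T and B lymphocyte markers fell in both, with sums of 51.6 to 1332, 106 to 1346 and 2266 to 5087 in the same order. Skeletal muscle markers fell in 10 of 10 cases in STAT5ca tumours and 9 of 10 in STAT5Δ750 tumours, with sums of 95.2 to 9492, 290 to 17306 and 48801 to 64112. Of 8 endothelial markers 5 fell in both tumour types, with sums of 467 to 1891, 730 to 1601 and 2232 to 2454.

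For 10 preadipocyte and fibroblast markers, STAT5ca tumours had 2 higher and 3 lower and STAT5Δ750 tumours 1 higher and 2 lower, with overlapping sums of 3979 to 16173, 5383 to 12088 and 7178 to 10522. Of 9 luminal markers 1 rose in STAT5ca tumours and 2 in STAT5Δ750 tumours, with sums of 1025 to 38278, 17271 to 33850 and 4697 to 10703. Without STAT5ca_177, the array with the lowest sum, 7 of the 9 luminal markers rose in each tumour type. Leaving out this STAT5ca array does not move STAT5Δ750 differences, and their luminal median was 1.94 in both fits. It changes the spread shared by the groups, and so the count that passes. Of 6 basal markers 2 fell in STAT5ca and 1 in STAT5Δ750 tumours, with sums of 352 to 2667, 839 to 5320 and 1650 to 2257. Macrophage sums were 4183 to 41994, 3359 to 10782 and 9854 to 10695, with STAT5ca_177 highest, and 1 of 8 markers rose in STAT5ca tumours and none in STAT5Δ750 tumours. Without that array 1 rose and 2 fell in each. All 9 markers of dividing cells rose in both tumour types, with sums of 1973 to 11125, 5035 to 8883 and 910 to 1416. The part of any of these cell types in the higher Phlda2 and the lower Ndn and Meg3 was not tested.

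The genes around the members were taken from lists by genomic position and known imprinting. Around Phlda2, Cdkn1c and H19 on distal chromosome 7, 13 of 17 listed genes were tested, and 5 rose and none fell in STAT5ca tumours. Of all genes 13.9% rose and 9.39% fell there. In STAT5Δ750 tumours 2 rose and 1 fell, where 9.29% of all genes rose and 10.4% fell. The median log2 difference of the 13 was 0.64 and 0.63, where all genes had 0.25 and 0.08. Without STAT5ca_177, STAT5ca tumours had 5 higher and 1 lower, and STAT5Δ750 tumours 4 higher and 2 lower. Dhcr7, which encodes an enzyme of the final step of cholesterol synthesis, rose by 1.80 ± 0.33 on the log2 scale in STAT5ca tumours (SE, limma adjusted p = 0.00125) and by 1.32 ± 0.34 in STAT5Δ750 tumours (adjusted p = 0.0127). Kcnq1, a potassium channel, rose by 2.13 ± 0.55 (adjusted p = 0.0115) and 1.91 ± 0.57 (adjusted p = 0.0266). With gland signals of 1.0 to 16.2, Kcnq1 met the filter through tumours alone and could be tested only because they read higher.

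Cd81, a tetraspanin of many cell types, rose by 1.02 ± 0.24 in STAT5ca tumours (limma adjusted p = 0.00675), and the difference was 0.67 ± 0.25 in STAT5Δ750 tumours (adjusted p = 0.0695). Tspan32, a tetraspanin of blood cells, fell by 3.16 ± 0.98 in STAT5Δ750 tumours (adjusted p = 0.0334) and gave −2.68 ± 0.96 in STAT5ca tumours (adjusted p = 0.0545). The STAT5ca difference was −3.40 without STAT5ca_177 (adjusted p = 0.000240). The fall of Tspan32 stands beside that of the lymphocyte markers above, and their relation was not tested. With the deposited scaling, 3 of these 13 genes rose and 1 fell in STAT5ca tumours, and Tssc4, at 0.86 ± 0.27 with the common median (adjusted p = 0.0320), gave 0.58 (adjusted p = 0.113). Phlda2 and Cdkn1c, neighbours in this domain, had differences of opposite sign in both tumour types, but those of Cdkn1c did not pass.

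**Figure D4:**
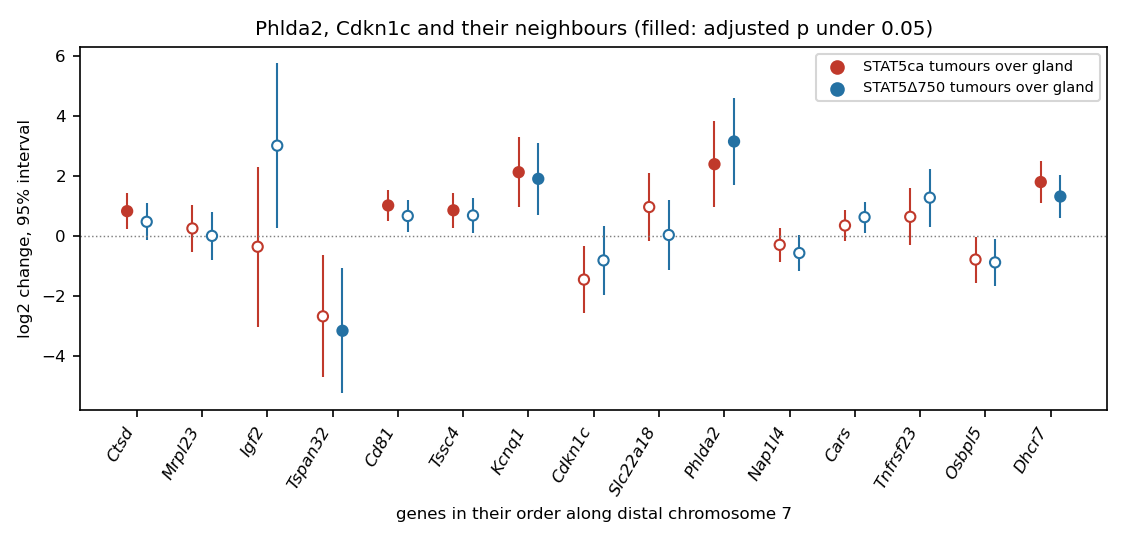
Log2 difference over gland with its 95% interval for Phlda2, Cdkn1c and their tested neighbours, in their order along distal chromosome 7, for STAT5ca and STAT5Δ750 tumours (filled for an adjusted p under 0.05). Phlda2, Kcnq1 and Dhcr7 are filled in both tumour types, and Cdkn1c, between Kcnq1 and Phlda2, is filled in neither.

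Igf2, a fetal growth factor beside H19 on distal chromosome 7, did not pass and is named because of its range, after its values were seen. Its signal was 15.0, 31.0 and 691.2 as lowest, median and highest in STAT5ca tumours. In STAT5Δ750 tumours it was 73.1, 533.2 and 6745.1, and in gland 54.4 to 81.3. The differences were −0.35 ± 1.26 (SE, limma adjusted p = 0.862) and 3.02 ± 1.29 (adjusted p = 0.113). STAT5ca minus STAT5Δ750 tumours gave −3.37 ± 1.02 (adjusted p = 0.580).

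Of the neighbours of Peg3, Mest, Dlk1, Meg3, Plagl1, Grb10 and Ndn, 9 of 27 were tested. 5 rose in STAT5ca tumours and 4 in STAT5Δ750 tumours, where 13.9% and 9.29% of all genes rose. None fell, where 9.39% and 10.4% of all genes fell. Copg2, a coatomer gene beside Mest, rose by 1.24 ± 0.26 in STAT5ca tumours (SE, limma adjusted p = 0.00290) and 0.89 ± 0.26 in STAT5Δ750 tumours (adjusted p = 0.0263), where Mest itself did not pass. Fignl1, a gene of DNA repair beside Grb10, rose by 1.91 ± 0.43 (adjusted p = 0.00462) and 1.96 ± 0.44 (adjusted p = 0.00542). The differences of Grb10 had the opposite sign but passed in neither tumour type. Sf3b5 and Nrf1 also rose in both, and Ube2h rose by 1.19 ± 0.36 in STAT5ca tumours (adjusted p = 0.0255) and gave 0.87 ± 0.37 in STAT5Δ750 tumours (adjusted p = 0.108). With the deposited scaling 3 of the 9 rose in STAT5ca tumours, where Nrf1 gave 0.74 (adjusted p = 0.0982) and Ube2h 0.90 (adjusted p = 0.116), and 4 in STAT5Δ750 tumours.

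Of 30 other imprinted genes 19 were tested, with 2 higher and 3 lower in STAT5ca tumours and 1 higher and 2 lower in STAT5Δ750 tumours. Their median log2 differences were −0.05 and −0.16. Of all genes 13.9% were higher and 9.39% lower in STAT5ca tumours, and 9.29% higher and 10.4% lower in STAT5Δ750 tumours. Without STAT5ca_177, 4 of the 19 were higher and 3 lower in STAT5ca tumours and 2 higher and 2 lower in STAT5Δ750 tumours. Slc38a4, an amino acid transporter of the placenta and liver expressed from the paternal copy, had lowest, median and highest signals of 0.8, 2.7 and 6.1 in STAT5ca tumours. In STAT5Δ750 tumours these were 3.4, 5.9 and 13, and in gland 67.5, 156.9 and 162.9. Slc38a4 met the filter through the 3 glands alone. With tumours this low, it could be tested only because gland read higher. It fell by 3.54 ± 0.29 in STAT5ca tumours (SE, limma adjusted p = 2.22e-06) and fell by 3.12 ± 0.30 in STAT5Δ750 tumours (adjusted p = 1.1e-05).

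Nnat, which encodes neuronatin, a small membrane protein found in neurons and fat, fell by 4.12 ± 0.45 in STAT5ca tumours (SE, limma adjusted p = 1.74e-05) and fell by 3.47 ± 0.46 in STAT5Δ750 tumours (adjusted p = 0.000123). Its median signals were 16.5 in STAT5ca tumours, 27.5 in STAT5Δ750 tumours and 313.9 in gland. The tumour signals of Slc38a4 lay largely below the offset of 7.9, which limits the size of its difference. These falls stand beside the fall of all 8 white adipocyte markers, and their relation was not tested. Dcn, a matrix proteoglycan of fibroblasts, fell by 2.22 ± 0.74 in STAT5ca tumours (adjusted p = 0.0393) and gave −1.50 ± 0.76 in STAT5Δ750 tumours (adjusted p = 0.177). Zfp64 rose in both tumour types, by 1.15 ± 0.26 (adjusted p = 0.00501) and 0.96 ± 0.27 (adjusted p = 0.0199), and H13 gave 1.36 ± 0.46 (adjusted p = 0.0420) and 1.08 ± 0.47 (adjusted p = 0.117). The H13 call in STAT5ca tumours was lost with the deposited scaling (1.07, adjusted p = 0.0821) and with quantile normalization (1.01, adjusted p = 0.0944).

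Genes that act with the members were read from 3 further lists. In the PHLDA family Phlda1 gave 1.36 ± 0.72 in STAT5ca tumours (SE, limma adjusted p = 0.186) and 1.62 ± 0.74 in STAT5Δ750 tumours (adjusted p = 0.136), and Phlda3 0.09 ± 0.68 and 0.18 ± 0.69, so neither relative of Phlda2 passed. Of the other CIP/KIP inhibitors, relatives of Cdkn1c, Cdkn1a rose by 1.93 ± 0.67 in STAT5ca tumours (adjusted p = 0.0489) and gave 1.63 ± 0.69 in STAT5Δ750 tumours (adjusted p = 0.110). The first call was lost with the deposited scaling (1.64, adjusted p = 0.0887) and without STAT5ca_177 (1.68, adjusted p = 0.0551). Cdkn1b gave 0.13 ± 0.42 and −0.37 ± 0.43.

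Of 12 tested ligands, receptors and partners of the members, 1 rose and 2 fell in each tumour type, and without STAT5ca_177 it was 2 and 2 in STAT5ca tumours. Igf1, the growth factor whose receptor Grb10 binds, fell by 2.11 ± 0.38 on the log2 scale in STAT5ca tumours (SE, limma adjusted p = 0.00107) and fell by 2.09 ± 0.39 in STAT5Δ750 tumours (adjusted p = 0.00166). Grb14, an adaptor of the same family as Grb10, fell by 2.57 ± 0.46 (adjusted p = 0.00107) and fell by 2.5 ± 0.47 (adjusted p = 0.00186). E2f1, a factor of cell cycle entry bound by necdin, rose by 1.85 ± 0.44 (adjusted p = 0.00695) and 1.37 ± 0.45 (adjusted p = 0.0432), and all 9 markers of dividing cells rose beside it.

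Within the tumours, the 8 genes were set against one another over 13 arrays after subtracting the mean of each tumour type. The 28 Pearson correlations of log2 values ran from −0.721 to 0.561. None passed adjustment over the 28 pairs by permutation within groups (smallest adjusted p = 0.385 for r and 0.292 for rho), and 3 values of r had an unadjusted p under 0.05. Plagl1 and Ndn gave r = −0.721 and rho = −0.643 (permutation p = 0.0207 and 0.0486), and r = −0.325 without STAT5ca_124 and STAT5ca_177. Meg3 and Ndn gave r = 0.561 and rho = 0.511 (permutation p = 0.0488 and 0.0899), and r = 0.08 without STAT5ca_124 and STAT5Δ750_254. Both relations rest on the arrays left out.

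Phlda2 and Peg3 gave r = 0.516 and rho = 0.467 (permutation p = 0.0359 and 0.0779), and r = 0.752 without the tumours with the highest Phlda2, STAT5Δ750_165 and STAT5Δ750_160. Without STAT5ca_177, the lowest tumour for both genes, it was 0.193. Phlda2 and Mest gave r = 0.555 and rho = 0.544 (permutation p = 0.0635 and 0.0706), and r = −0.251 without STAT5Δ750_165 and STAT5Δ750_160. Without STAT5ca_177 it was r = 0.766 and rho = 0.888 (permutation p = 0.0235 and 0.0161, adjusted p = 0.339 and 0.226), and r = 0.438 when STAT5Δ750_165 and STAT5Δ750_160 were left out too. The 5 genes most like Phlda2 over the same 13 arrays, among 9260 others, were Fam83g (r = 0.946), Zmynd19 (r = 0.910), Kars (r = 0.886), Zfp553 (r = 0.872) and Dyrk3 (r = 0.870), given as a description of these arrays.

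**Figure D5:**
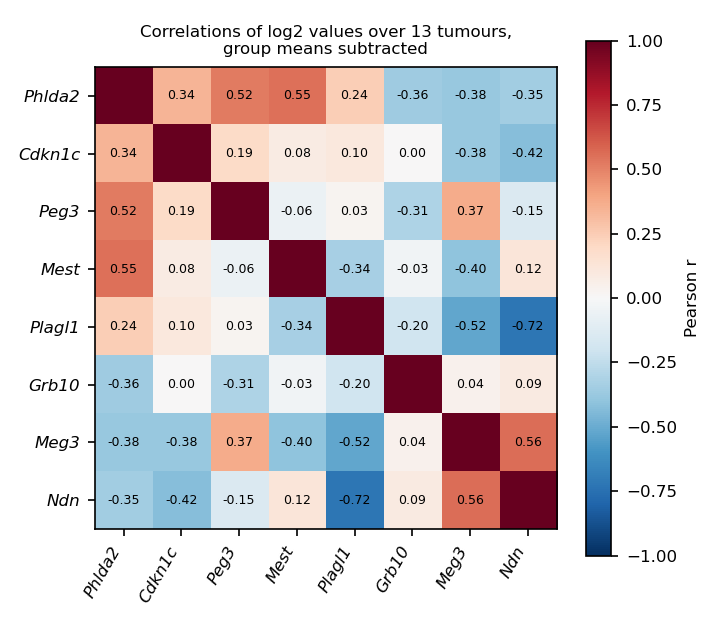
Pearson correlations of log2 values between 8 imprinted genes over 13 tumours, with the mean of each tumour type subtracted. The values run from −0.72 for Plagl1 and Ndn to 0.56 for Meg3 and Ndn, with 0.55 for Phlda2 and Mest.

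The 8 genes were also set against the mean log2 value of the 9 marker lists over the 13 tumours, in 72 pairs. None passed adjustment by permutation (smallest adjusted p = 0.144 for r and 0.0680 for rho), and 10 values of r had an unadjusted p under 0.05. Phlda2 gave r = −0.478 and rho = −0.775 with the T and B lymphocyte list (permutation p = 0.135 and 0.00168, adjusted p = 0.365 and 0.0680), and r = −0.468 without STAT5Δ750_165 and STAT5Δ750_160. Peg3 gave r = −0.611 and rho = −0.753 with the skeletal muscle list (permutation p = 0.00908 and 0.00189, adjusted p = 0.156 and 0.0680), and r = −0.258 without STAT5ca_177 and STAT5ca_159. Ndn gave r = 0.809 and rho = 0.786 with the preadipocyte and fibroblast list (permutation p = 0.0108 and 0.0140, adjusted p = 0.156 and 0.296), and r = 0.719 without STAT5ca_124 and STAT5ca_177. With the T and B lymphocyte list Ndn gave r = 0.728 and rho = 0.549 (permutation p = 0.00200 and 0.0716), and r = 0.471 without the same arrays. Meg3 gave r = 0.832 and rho = 0.588 with that list (permutation p = 0.00552 and 0.0449), and r = 0.249 without STAT5ca_124 and STAT5Δ750_254, the tumours of each type with the highest lymphocyte sums. Ndn also gave r = 0.680 with the macrophage list and r = 0.633 with the endothelial list (permutation p = 0.0103 and 0.0394). Without STAT5ca_124 and STAT5ca_177 these were 0.688 and 0.573. The remaining pairs with an unadjusted p under 0.05 were Plagl1 with lymphocytes (r = −0.661), Mest and Grb10 with the basal list (0.645 and −0.572) and Peg3 with dividing cells (0.729).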

How the data were processed

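Total RNA of snap-frozen tumours and of normal gland was hybridised to Affymetrix Mouse Genome 430A 2.0 arrays, and 16 arrays in 3 groups were used as the labels give them. The authors deposited MAS5 signals, an intensity per probe set and array on a linear scale, per the submitters' processing notes, which give no version. The deposited intensities already shared a trimmed mean (without the most extreme signals) of 249.965 to 249.969 on every array. Their array medians differed by a ratio of 1.58, so each array was scaled again to a common median of 75.9. This choice moved the all-gene median difference over gland from −0.023 to 0.25 in STAT5ca tumours. In STAT5Δ750 tumours it moved from −0.043 to 0.08. Values were tested as log2(scaled signal + 7.9), where 7.9 is the 20th percentile of all deposited values, so differences of low signals are understated. No detection calls were used.

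Probe sets were named from the platform annotation: 20393 carried 1 gene symbol, 691 several and 1606 none. Probe sets with a deposited signal above 35.4 on at least 3 arrays were kept (15764), and the one with the highest mean log2 value stood for its gene (9261 genes). limma 3.58.1 in R 4.3.3 fitted all 3 groups in 1 model with 13 residual degrees of freedom, with two-sided p-values adjusted by Benjamini-Hochberg over all genes within a comparison. A second fit covered all kept probe sets. Correlations used 100000 permutations of arrays within each tumour type, in Python 3.11.15. The fit was tested on simulated data in which far fewer genes changed than in these arrays. Of 2-fold changes it recovered 11% in STAT5ca and 8.8% in STAT5Δ750 tumours against gland. Of 4-fold changes it recovered 71.8% and 70.2%. A gene that did not pass may therefore still differ. Promoter windows, names and positions came from RefSeq for GRCm38.p6.

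The members, gene lists and tests were chosen with earlier results of these data known. All members were named, with up to 5 passing genes of each list by smallest adjusted p in either comparison with gland, and the 5 genes most correlated with Phlda2. Alternatives were other scalings, offsets, filters and summaries of probe sets, array weights, a beta-actin 3′/5′ covariate, only the groups compared, and leaving out each array. Gene list counts with the deposited scaling, with quantile normalization and without STAT5ca_177 were added after seeing the data.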

Additional observations from a re-analysis of the deposited data

Results flagged for a closer look

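In 16 groups of 6 or 7 tumour arrays of the 8 genes tested, the gap of the most extreme array to its neighbour was set against the range of the group, and 2 exceeded the 95% critical value. Chance gives about 1 in 20 groups. Cdkn1c was far below the other STAT5Δ750 tumours on STAT5Δ750_174, with a gap of 0.766 of the range of log2 values and a signal of 1.7. Meg3 was far above the other STAT5ca tumours on STAT5ca_124, with a gap of 0.691 of the range and a signal of 288.7. STAT5ca_124 also had the highest white adipocyte and lymphocyte marker sums of its group, and the part of these in its Meg3 signal was not tested.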

How the results depend on the processing

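Of the 8 genes, 3 passed in each comparison with gland. In STAT5ca tumours the count was 1 of 4 tested with the filter at the 60th percentile, 5 with array quality weights and 2 with the beta-actin ratio as a covariate, and leaving out 1 array gave 1 to 4. In STAT5Δ750 tumours it was 1 of 4 with that filter, 2 with probe sets averaged per gene, 6 with array quality weights and 5 with only the arrays of the groups compared, and leaving out 1 array gave 2 to 4. Between the tumour types it was 0 under every alternative run, and leaving out 1 array gave 0. The lower counts with that filter come with fewer genes tested, since Phlda2, Cdkn1c, Mest and Ndn did not meet it. The causes of the other moves were not tested.

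Differences changed sign only where none passed. Between STAT5ca and STAT5Δ750 tumours, Ndn gave −0.10 with the deposited scaling, −0.066 with array weights, and −0.14 to 0.18 when 1 array was left out. Meg3 gave −0.047 with its probe sets averaged, −0.10 with the beta-actin ratio and −0.076 (without STAT5ca_124) to 0.32 with 1 array left out, and Grb10 −0.081 (without STAT5ca_169) to 0.44. Against gland, Peg3 in STAT5ca tumours gave 0.011 with array weights, −1.81 with the beta-actin ratio and −0.77 to 0.11 (without STAT5ca_177) with 1 array left out, and Mest in STAT5Δ750 tumours −0.21 (without STAT5Δ750_160) to 0.82. Of the other values of single genes 600 kept their direction and side of the threshold, 13 passed only under the alternative and 9 lost their call. No paired analysis was possible because the groups share no replicate number. Signals near the offset of 7.9, such as Phlda2 in gland, Dlk1 and Slc38a4 in tumours, limit what can be said of size.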
